A study of Carica papaya with 15 samples.

Results

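Sucrose is the main sugar that plants move and store, and 3 kinds of enzyme set how much of it a fruit cell keeps. Sucrose-phosphate synthase makes sucrose phosphate from UDP-glucose and fructose 6-phosphate, and a phosphatase then releases sucrose. Sucrose synthase works in both directions and is known mainly for cleaving sucrose with UDP into UDP-glucose and fructose. Invertases cleave sucrose into glucose and fructose without any return, and the neutral or alkaline invertases do so inside the cell rather than in the wall or the vacuole. In fleshy fruit these enzymes are known for sweetness, for feeding respiration, and for supplying the UDP-glucose from which wall polysaccharides are built.

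The 4 genes described here are 1 for synthesis and 3 for cleavage, of 20332 genes in the expression table. SPS2F (LOC110806438) bears the symbol of a sucrose-phosphate synthase, SUS2 (LOC110815045) and SUS4 (LOC110812012) those of sucrose synthases, and A/N-INVC (LOC110821353) that of an alkaline/neutral invertase. These and the other symbols here are names of Arabidopsis genes, and the roles given are known from Arabidopsis or from the enzyme families. The members were picked by their identifiers with their values in these libraries known, so their levels and fold changes are a description and carry no test. No p-value is given for them, and nothing is read from how many of them differ.

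Pulp of "Golden" papaya, a climacteric fruit that ripens under ethylene, was read in 15 RNA-seq libraries, 3 for each of 5 groups. T12h fruit were held for 12 h in ethylene at 100 ppm and frozen after venting, and T24h fruit were left in air for another 12 h after the same exposure. C12h and C24h fruit were left to ripen without added ethylene and sampled at 12 h and 24 h, and C0h fruit were frozen on arrival. The treated fruit were held in a closed system during the exposure. Whether the controls were enclosed is not stated, and the part of enclosure was not tested. At least 5 fruit of harvest A, B or C, peeled and freed of seeds, were pooled for each library, so each harvest gave 1 library to every group and pools, not single fruit, are the replicates. Values are the deposited normalized counts, that is, counts per gene scaled by the size factor of their library, and in bulk pulp more RNA per cell and more cells of a type cannot be told apart.

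Recovered reads ranged between 7999275 in C24h B and 12542678 in C0h C over 13 libraries. The sums of normalized counts were 10874253 to 13283883 in treated libraries and 8314364 to 12070774 in control libraries, and the highest control sum was 9593068 without C24h B. Library C24h B therefore stood apart from the other control libraries, and it did so in 3 of the 4 members as well. Fold changes between T24h and C24h are given with and without it. All 6 pulp carotenoid markers found in the table were present, summing to 18600 to 23720 normalized counts in T12h and 15100 to 17820 in C12h. Most of each sum was PDS3 and ZDS. LYC ran the other way, with 73.5, 82.5 and 74.4 in T12h A, B and C and 185, 106 and 137 in C12h. So did CRTISO, with 45.7, 36.8 and 53.3 in T12h and 83.2, 55.7 and 72.3 in C12h. Markers of some other tissues also differed between groups. The 8 vascular markers summed to 6133 to 9005 in T12h and 730 to 1197 in C12h, to 1466 to 5809 in T24h and 622 to 4673 in C24h, and to 768 to 854 in C0h. Most of the T12h sum was IRX3, a cellulose synthase of secondary walls, with 5977, 5846 and 8696 normalized counts in T12h A, B and C. NAC083, the next most abundant, ran the other way, with 301, 216 and 228 in T12h and 648, 498 and 684 in C12h, while SEOR1 of the sieve elements, IRX9 and VND7 were at or near 0. The 4 green tissue markers summed to 49.98 to 141 in T12h and 236 to 475 in C12h, the 6 peel and cuticle markers to 9721 to 11510 in T12h and 8609 to 9003 in C12h, and the 5 seed markers, with ABI3 at 0 in every library, overlapped at 38.8 to 265 in T12h and 92.2 to 318 in C12h. Most of the peel and cuticle sum was FDH, with 8258, 10034 and 8741 normalized counts in T12h A, B and C and 7715, 7767 and 7426 in C12h. LTPG1 was also higher in T12h, at 1309, 1320 and 2005 against 707, 1083 and 1100. CYP86A7 ran the other way, at 137, 132 and 139 against 181, 140 and 238. The part of these tissues in the results below was not tested.

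On the synthesis side, SPS2F was lower in ethylene-treated pulp. SPS2F stood at 153, 165 and 165 normalized counts in T12h A, B and C, against 219, 242 and 292 in C12h. All T12h libraries lay below all C12h libraries, and those of T12h lay close together. The means were 161 ± 7.29 in T12h and 251 ± 37.4 in C12h (SD, n = 3 each), a log2 fold change of -0.63 with a standard error (SE) of 0.27 in the fit over all genes. Within the harvests T12h had 0.697, 0.682 and 0.566 times the C12h value in A, B and C, so the reduction was of similar size each time.

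At 24 h SPS2F was at 72.6, 145 and 118 normalized counts in T24h A, B and C, against 193, 125 and 204 in C24h. These groups overlapped through C24h B alone. In harvest B T24h had 1.16 times the C24h value, against 0.376 times in A and 0.577 times in C. Means were 112 ± 36.5 in T24h and 174 ± 42.6 in C24h (SD, n = 3 each). In the fit this was -0.66 on the log2 scale (SE 0.27), -0.88 without C24h B and -0.38 without T24h A. Against C0h, with 182, 310 and 267 normalized counts in A, B and C, the T24h libraries were all lower, at 0.40, 0.468 and 0.441 times, a log2 fold change of -1.19 (SE 0.27). This was the largest difference of SPS2F in the 7 comparisons made. C12h and C0h overlapped, with a log2 fold change of 0.02 (SE 0.27).

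On the cleavage side, SUS4 was higher in treated pulp at 12 h. Its values were 3032, 2936 and 1905 normalized counts in T12h A, B and C, against 971, 1135 and 739 in C12h. The lowest T12h library, from harvest C, lay above the highest C12h library. Means were 2624 ± 625 in T12h and 948 ± 199 in C12h (SD, n = 3 each), and the log2 fold change was 1.46 (SE 0.39). Each harvest showed it, with T12h at 3.12, 2.59 and 2.58 times C12h in A, B and C. Harvest C had the lowest SUS4 in both groups, with a fold close to that of harvest B.

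At 24 h the SUS4 values of treated and control pulp overlapped, and whether the responses at both times differ was not tested for the members. T24h A, B and C held 2184, 1301 and 2572 normalized counts, against 972, 2402 and 693 in C24h. Harvests A and C had T24h at 2.25 and 3.71 times C24h, whereas in harvest B the order was turned round, at 0.542 times. The log2 fold change of SUS4 was 0.72 (SE 0.39), with 1.24 without C24h B and 0.34 without C24h C. In harvest B, C24h stood at 2.71 times C0h, against 0.737 times in A and 0.843 times in C. The C0h libraries held 1319, 888 and 822 normalized counts, of which the A value was just above the lowest T24h value, and the log2 fold change of T24h over C0h was 0.97 (SE 0.39).

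SUS2 was read at low depth, so its levels are rough. In T12h A, B and C it had 11.1, 14.9 and 25.5 normalized counts, against 5.37, 8.22 and 2.44 in C12h, where they rest on 6, 9 and 3 reads. The T12h libraries were all above the C12h libraries. Counting error alone gave a 95% exact Poisson interval of 5.34 to 20.5 around the T12h A value, so the lower end reaches into the range of C12h. Such intervals cover counting error only. The means were 17.2 ± 7.47 in T12h and 5.34 ± 2.89 in C12h (SD, n = 3 each), with a log2 fold change of 1.56 (SE 0.72).

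SUS2 was highest of all in T24h, where its libraries A, B and C held 49.6, 57.3 and 29.99 normalized counts, against 9.44, 21.1 and 1.74 in C24h. It was the only one of the 4 genes whose T24h libraries were all above all C24h libraries with C24h B included. Its means were 45.7 ± 14.1 in T24h and 10.8 ± 9.76 in C24h (SD, n = 3 each). The log2 fold change was 2.39 (SE 0.72), with 3.08 without C24h B and 1.57 without C24h C. In C0h SUS2 had 6.11, 4.07 and 0.713 normalized counts, from 8, 4 and 1 reads, and T24h over C0h was 3.51 on the log2 scale (SE 0.72). Since 1 is added to each value before logs are taken, this figure depends on the added value: it was 2.56 when 5 was added. T24h was also above T12h in every harvest, at 4.45, 3.85 and 1.17 times in A, B and C. In harvest C this rests on 26 reads in T24h and 23 in T12h. Their 95% exact Poisson intervals, 19.6 to 43.9 and 16.2 to 38.3 normalized counts, overlap, so these 2 libraries could not be told apart.

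A/N-INVC was higher in T12h in every harvest. It had 3531, 2822 and 3593 normalized counts in T12h A, B and C, against 1352, 1269 and 1317 in C12h. The groups did not overlap, and the C12h libraries were nearly alike, with means of 3315 ± 428 in T12h and 1313 ± 41.7 in C12h (SD, n = 3 each). The log2 fold change was 1.33 (SE 0.22), and T12h stood at 2.61, 2.22 and 2.73 times C12h in harvests A, B and C.

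After 12 h out of the gas, A/N-INVC was at 3331, 2012 and 1592 normalized counts in T24h A, B and C, against 1668, 1651 and 2037 in C24h. Harvest A kept a treated to control ratio of 2.0, harvest B had 1.22, and harvest C had 0.781. The log2 fold change was 0.31 (SE 0.22), and -0.02 when values were scaled to the total of each library (CPM) instead. Leaving out C24h B gave 0.26, and the groups overlapped without it as well. It was 0.01 without T24h A, the library on which the difference rested, and 0.54 without T24h C. The treated to control ratio was smaller than at 12 h in each harvest, and whether the responses differ was not tested. T24h stood at 0.943, 0.713 and 0.443 times T12h in harvests A, B and C, so in A nearly the same. On the control side C24h, at 1651 to 2037 normalized counts, lay above C12h, at 1269 to 1352. C24h stood at 1.19, 1.5 and 1.72 times C0h. C24h was above C0h, which held 1397, 1101 and 1188 normalized counts, in all libraries.

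**Figure D1:**
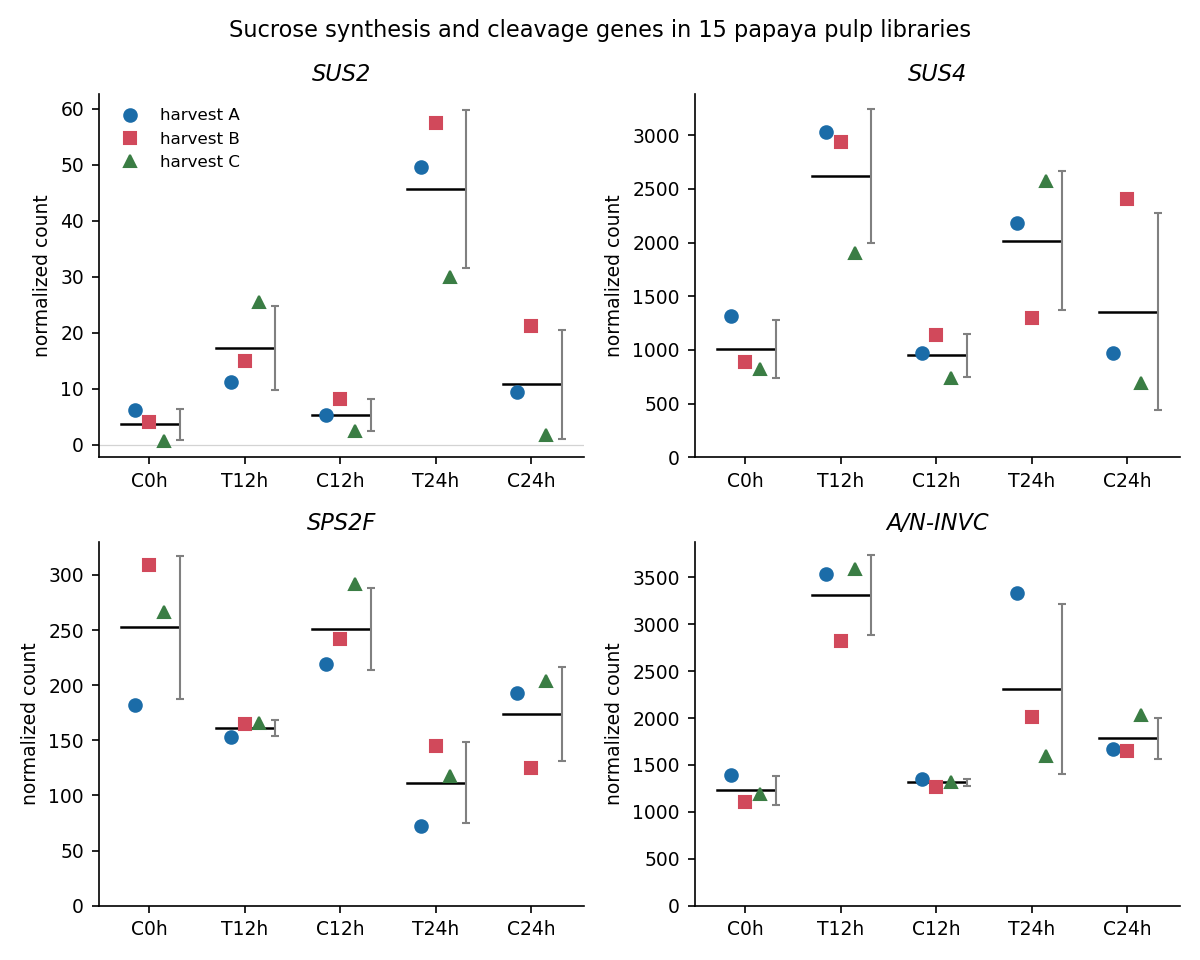
Normalized counts of the 4 genes in the 15 libraries, by group on the horizontal axis, with a linear vertical axis for each gene. Symbols mark harvests A, B and C, the horizontal line is the group mean and the grey bar the SD (n = 3). SPS2F lies lower in T12h (153 to 165) than in C12h (219 to 292), SUS4 and A/N-INVC lie higher, and SUS2 is highest in T24h (29.99 to 57.3).

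Set against all genes, the 4 members gave the following counts. Between T12h and C12h, 3 members had all treated libraries above all control libraries, where 26.3% of the 15270 genes tested did, and 1 had them all below, where 26.1% did. SUS4 and A/N-INVC were past an adjusted p of 0.05, where 24.1% of all genes were. Those genes were 1791 higher and 1884 lower, and with CPM scaling 964 higher and 3194 lower. Between T24h and C24h only SUS2 was without overlap (above, as 5.72% of all genes were, while 5.74% were below) and no member was past the threshold, where 0% of all genes were. By limma the unadjusted p of 2843 genes was 0.05 or less in that comparison, edgeR called 0 and DESeq2 116 on the 13 libraries, and limma called 3601 without C24h B. Over C0h, no member overlapped in T12h (3 above, beside 25.0% of all genes, and 1 below, beside 24.0%), and in T24h SUS2 and A/N-INVC were above and SPS2F below (beside 19.7% of all genes in each direction). Past the threshold were SUS2, SUS4 and A/N-INVC in T12h over C0h, beside 24.0% of all genes, and SUS2, SPS2F and A/N-INVC in T24h over C0h, beside 15.6%. The genes behind these shares were 1804 higher and 1860 lower in T12h over C0h (1056 and 2554 with CPM scaling), and 1240 higher and 1148 lower in T24h over C0h (615 and 2874). Between T24h and T12h, SUS2 was above and SPS2F below (15.4% and 14.5% of all genes), none was past the threshold and 5.51% of all genes were (490 or 3.21% higher and 352 or 2.31% lower, and 208 and 393 genes with CPM scaling). These comparisons share libraries, and the members were chosen on them, so being past the threshold is no test of a member.

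Between control groups nearly all members overlapped. All 4 overlapped between C12h and C0h, where 9.73% of all genes were above and 10.4% below without overlap and 0% passed the threshold. That 0 is by limma, with 1070 genes at 0.05 or less before adjustment, and DESeq2 called 34 and edgeR 0 on the 13 libraries. Between C24h and C0h, A/N-INVC alone was without overlap, beside 4.62% of all genes above and 4.39% below, and 0% passed by limma, with 958 at 0.05 or less before adjustment and 11 called by DESeq2. For A/N-INVC the log2 fold change of C24h over C0h was 0.54 (SE 0.22), and 0.59 without C24h B. SPS2F was at -0.53 in C24h over C0h (SE 0.27), and at -0.31 without C24h B, with values that overlapped. The same comparison gave 1.12 for SUS2 (SE 0.72), 0.43 without C24h B, 0.52 without C0h C and 1.94 without C24h C. It gave 0.25 for SUS4 (SE 0.39) and -0.27 to 0.63 when 1 library was left out, without C24h B and without C24h C.

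**Figure D2:**
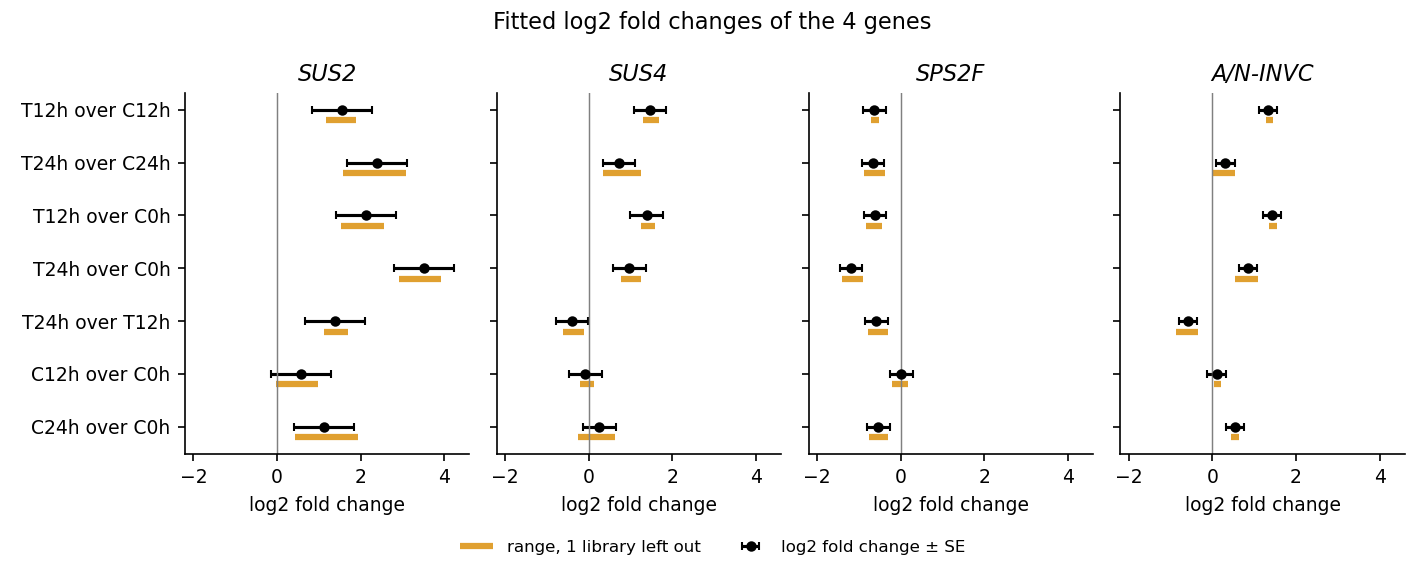
Fitted log2 fold changes (horizontal axis) of the 4 genes in the 7 comparisons (rows), as points with bars of 1 SE, each above an orange band for the lowest and highest value when 1 library is left out. Between T12h and C12h the bands of all 4 genes stay on 1 side of 0. Between T24h and C24h they do so as well, with that of A/N-INVC from 0.01 to 0.54 and that of SUS4 from 0.34 to 1.24. Bands that cross 0 are those of SUS2, SPS2F and SUS4 between C12h and C0h, and of SUS4 between C24h and C0h (-0.27 to 0.63).

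In its SUS2, SUS4 and SPS2F values, C24h B was on the side of the treated libraries. It had 21.1, 2402 and 125 normalized counts of these genes, against 9.44 and 1.74, 972 and 693, and 193 and 204 in C24h A and C. Its A/N-INVC value of 1651 was instead the lowest of its group. The IRX3 value of C24h B, 4228 normalized counts, likewise lay within the range of T24h, 748 to 5451, and not near the 151 and 52.9 of C24h A and C. The authors named this library as the exception to the split of control and treated samples in their clustering. They gave a slightly raised ethylene yield of that sampling as the probable reason. What set this library apart was not tested here.

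Ratios of 2 genes within a library do not depend on its size factor. SUS4 over SPS2F was 19.9, 17.8 and 11.5 in T12h A, B and C, against 4.43, 4.69 and 2.53 in C12h. Every T12h ratio was above every C12h ratio. At 24 h this ratio was 30.1, 8.98 and 21.9 in T24h, against 5.04, 19.2 and 3.40 in C24h, so only C24h B crossed over. In C0h it was 7.26, 2.87 and 3.08.

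A/N-INVC over SPS2F was 23.1, 17.1 and 21.7 in T12h A, B and C, against 6.17, 5.25 and 4.51 in C12h. At 24 h it was 45.9, 13.9 and 13.5 in T24h, against 8.64, 13.2 and 9.99 in C24h. The lowest T24h ratios and that of C24h B could not be told apart at this depth, since SPS2F in C24h B rests on 83 reads, with a 95% exact Poisson interval of 99.8 to 155 normalized counts around 125. In C0h the ratio was 7.69, 3.56 and 4.45. The balance between both cleavage genes was another matter: A/N-INVC over SUS4 was 1.16, 0.961 and 1.89 in T12h, against 1.39, 1.12 and 1.78 in C12h, and these groups overlapped. At 24 h it was 1.53, 1.55 and 0.619 in T24h, against 1.72, 0.687 and 2.94 in C24h, which had the widest range of the 5 groups. Ratios of reads do not compare the amounts of 2 transcripts, whose lengths on the files' build were not used here. Those over SPS2F do not set cleavage against synthesis as a whole, since SPS1F and ATSPS4F had higher counts than SPS2F.

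**Figure D3:**
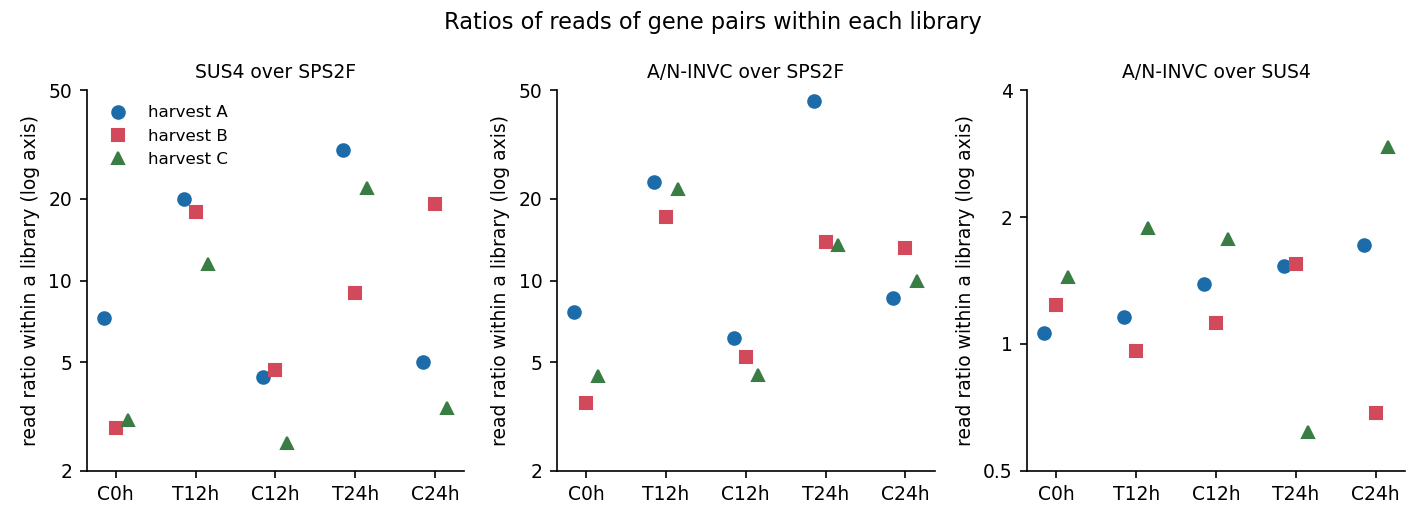
Ratio of the reads of 2 genes within each library, on log axes, by group, with symbols for harvests A, B and C. SUS4 over SPS2F and A/N-INVC over SPS2F are higher in T12h (11.5 to 19.9 and 17.1 to 23.1) than in C12h (2.53 to 4.69 and 4.51 to 6.17), whereas A/N-INVC over SUS4 overlaps between all groups.

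Across the 15 libraries the log2 values of SPS2F ran against those of the other members. Pearson's r with SPS2F was -0.82 for SUS2, -0.74 for SUS4 and -0.66 for A/N-INVC. The 3 cleavage genes ran with each other, with r = 0.72 for SUS2 and SUS4, 0.67 for SUS4 and A/N-INVC, and 0.57 for SUS2 and A/N-INVC. Without C24h B these values were -0.81, -0.72, -0.70, 0.71, 0.72 and 0.60. The libraries share groups, harvests and the normalization, and the members were chosen on them, so the values only describe the table.

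Among the 2945 genes with a symbol and a mean of at least 50 normalized counts, the 3 most like SUS4 were NSF, GALK and STP14 (Pearson's r = 0.975, 0.972 and 0.970 over 15 libraries). NSF is a fusion factor of vesicle traffic, GALK a galactokinase and STP14 a sugar transporter of the plasma membrane. GALK had 540, 511 and 457 normalized counts in T12h A, B and C, against 198, 267 and 203 in C12h, and 564 in C24h B. Closest to SPS2F were D-CDES (0.946), a D-cysteine desulfhydrase, UREG (0.941), a protein that helps to assemble urease, and TBL38 (0.937), a member of a family of wall acetyltransferases. UREG stood at 171, 283 and 190 normalized counts in T12h, against 450, 341 and 461 in C12h, and 130 in C24h B.

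SUS2 was most like SEC10 (0.946), a subunit of the exocyst, ERD1 (0.942), a chloroplast protein of the Clp family, and HMG2 (0.939), an HMG-CoA reductase of the mevalonate pathway. HMG2 held 2665, 2666 and 2384 normalized counts in T24h A, B and C, against 1195, 2473 and 845 in C24h. A/N-INVC was most like TBP1 (0.938), SAG101 (0.925), a lipase-like protein first described in senescing leaves, and AAP3 (0.921), an amino acid permease. AAP3 had 13260, 10490 and 14420 normalized counts in T12h A, B and C, against 1575, 2741 and 954 in C12h. The same 3 genes led for every member without C24h B. Likeness over libraries of 5 groups takes in differences between the groups and within them, and the part of each was not tested.

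Of the other genes of sucrose synthesis and cleavage, 10 were found by symbol and 7 had a mean of at least 5 normalized counts. They comprise the synthesis genes SPS1F and ATSPS4F, the sucrose phosphatase SPP1, the sucrose synthases SUS3 and SUS5, the alkaline/neutral invertase A/N-INVA, and ATBFRUCT1, a cell wall invertase. A/N-INVB and the invertase inhibitor C/VIF2 were at 0 in all libraries, and SPS3F was at most 4.44 in any library. None of the 7 passed the threshold in any of the 7 comparisons by limma. Between T12h and C12h, 0 of them had an unadjusted p of at most 0.05, and edgeR and DESeq2 called 0 on the 13 libraries. Their median log2 fold change there was 0.36, beside -0.01 over all genes tested, and it was 0.18 beside 0 between T24h and C24h, or 0.40 beside 0 without C24h B.

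The other synthesis genes had no difference at 12 h that could be told from 0. SPS1F averaged 2148 ± 491 normalized counts in T12h and 2158 ± 448 in C12h (SD, n = 3 each), a log2 fold change of -0.01 with a 95% interval of -0.69 to 0.67. ATSPS4F gave 0.14 (-0.40 to 0.68) and SPP1, the most evenly expressed of the list, 0.09 (-0.15 to 0.32). The interval of SPS1F holds the -0.63 of SPS2F, so a difference of that size in SPS1F could not be told apart from none, while those of ATSPS4F and SPP1 end above it. At 24 h these genes gave 0.18, 0.38 and -0.13 in T24h over C24h, with adjusted p of 0.781, 0.411 and 0.508 by limma. Without C24h B they gave 0.49 (95% interval -0.17 to 1.15), 0.40 and -0.14, with adjusted p of 0.263, 0.322 and 0.408.

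The other cleavage genes had positive values at 12 h that did not pass the test. Log2 fold changes in T12h over C12h were 0.36 (95% interval -0.32 to 1.05) for SUS3, 0.89 (-0.40 to 2.18) for SUS5, 0.62 (-0.34 to 1.58) for A/N-INVA and 0.60 (-0.02 to 1.22) for ATBFRUCT1, with adjusted p of 0.413, 0.280, 0.318 and 0.137 by limma. ATBFRUCT1 averaged 289 ± 43.5 normalized counts in T24h and 181 ± 71.3 in C24h (SD, n = 3 each), with 263 in C24h B. Its log2 fold change at 24 h was 0.73 (0.11 to 1.35, adjusted p = 0.218 by limma), and without C24h B it was 1.03 with an adjusted p of 0.0167. SUS3 held 75.8, 92.5 and 133 normalized counts in T12h A, B and C, against 174, 142 and 246 in C0h, which did not overlap. Its log2 fold change was -0.89 with an adjusted p of 0.0549 by limma, and 0.0384 without C24h B. C12h, with 70.7, 70.3 and 87.7 normalized counts of SUS3, was below C0h as well.

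**Figure D4:**
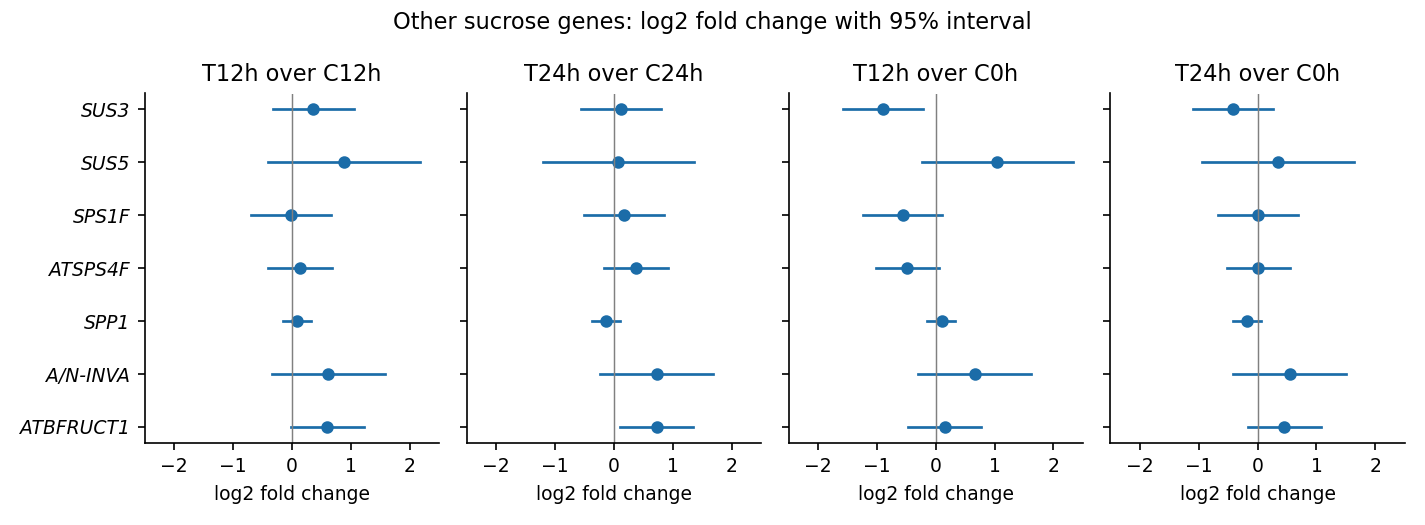
Log2 fold change (horizontal axis) with its 95% interval for the 7 other sucrose genes (rows) in 4 comparisons. Most intervals cross 0, and those of ATBFRUCT1 between T24h and C24h (0.11 to 1.35) and of SUS3 between T12h and C0h (-1.57 to -0.21) do not, although neither passed the adjusted threshold.

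Sugar transporters move sucrose and hexoses into and out of the cell and its compartments. Of 16 found by symbol, 11 were tested, and between T12h and C12h 4 rose and 1 fell, beside 11.7% and 12.3% of all genes, with a median log2 fold change of 0.25. SAG29, a SWEET sucrose exporter in Arabidopsis, had 1170, 1441 and 1424 normalized counts in T12h A, B and C, against 76.0, 354 and 162 in C12h. It rose by 3.02 on the log2 scale (SE 0.67, adjusted p = 0.0104 by limma), and the adjusted p was 0.0528 without C12h A. STP14 had 9345, 12988 and 8755 normalized counts in T12h, against 2415, 2838 and 1307 in C12h, and rose by 2.30 (SE 0.61, adjusted p = 0.0188). PGLCT, a glucose transporter of the plastid envelope, rose by 1.99 (SE 0.60, adjusted p = 0.0295). SUT4, a sucrose transporter, had 624, 745 and 642 normalized counts in T12h, against 1308, 1214 and 1856 in C12h, and fell by 1.1 (SE 0.37, adjusted p = 0.0439). The other gene that rose, SWEET2 of the vacuole membrane (log2 fold change 1.91, adjusted p = 0.0133 by limma), was picked after its value was seen.

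These transporter calls depended on single libraries. Leaving out T12h B gave 2 calls in the list, leaving out T12h C or C12h C gave 1, leaving out C12h A gave 0, and edgeR called 2 on the 13 libraries. SUT4 lost its call in 14 of 28 settings, with adjusted p up to 0.159. At 24 h 0 of the 11 passed in T24h over C24h by limma, with 5 at an unadjusted p of at most 0.05 and 6 called without C24h B. In C24h B, STP14 had 7702 and SUT4 563 normalized counts, against 2140 and 886 and against 1269 and 2112 in C24h A and C, again on the side of the treated libraries.

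Hexose and trehalose phosphate metabolism takes up the products of cleavage. Of 20 genes tested, 2 rose and 0 fell between T12h and C12h, beside 11.7% and 12.3% of all genes, with a median log2 fold change of 0.09. USP, which makes UDP-sugars from sugar phosphates, had 490, 522 and 473 normalized counts in T12h A, B and C, against 180, 234 and 148 in C12h, and rose by 1.42 (SE 0.37, adjusted p = 0.0181 by limma). HKL1, a hexokinase-like protein, rose by 0.69 (SE 0.22, adjusted p = 0.0378). Both calls were lost without T12h B, T12h C, C12h A or C12h C, where 0 of the list were called, while 4 were called without C24h B or C24h C. On the 13 libraries edgeR called 0 of the list. That of HKL1 was also lost without T12h A or C12h B and with CPM scaling (0.36, adjusted p = 0.188 by limma). Between T24h and C24h 0 of the 20 passed by limma, with 5 at an unadjusted p of at most 0.05 and 7 called without C24h B. Over C0h 5 rose and 0 fell in T24h, beside 8.12% and 7.52% of all genes, with USP at 1.80 (SE 0.37, adjusted p = 0.0132) and HKL1 at 1.05 (SE 0.22, adjusted p = 0.0143). With CPM scaling 4 rose and 3 fell there, and the count was 1 without C0h B, 0 without C0h C or T24h A, and 3 without T24h B.

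Starch is the other store that shares sugar phosphates with sucrose. Of 25 genes tested, 5 rose and 0 fell between T12h and C12h, beside 11.7% and 12.3% of all genes, with a median log2 fold change of 0.06. SS2, a starch synthase, had 57.9, 79.5 and 74.4 normalized counts in T12h A, B and C, against 17.0, 32.9 and 22.7 in C12h, and rose by 1.54 (SE 0.34, adjusted p = 0.0107 by limma). SS4, also a starch synthase, and ADG1, the small subunit of ADP-glucose pyrophosphorylase, rose by 1.34 (SE 0.43, adjusted p = 0.0369) and 0.93 (SE 0.31, adjusted p = 0.0417). The call of ADG1 was lost in 12 of 28 settings, among them the replicate block for harvest (adjusted p = 0.06095 by limma), edgeR and DESeq2. The other 2, the glucan dikinase PWD (0.89) and the amylase AMY2 (0.56), were picked after their values were seen. Without 1 of the T12h libraries 3 starch genes were called, without C12h A 1, without C12h C 2 and with CPM scaling 2, and SS4 was not called without any 1 of the 6 T12h and C12h libraries. The adjusted p of SS2 was 0.0536 without C12h A. SS2 had 109, 65.2 and 70.6 normalized counts in C0h, so that it was lower in C12h than on arrival and T12h was close to C0h. SS4 likewise averaged 436.9 normalized counts in C0h, 498.6 in T12h and 199.5 in C12h. Its log2 fold change of T12h over C0h was 0.21 (adjusted p = 0.744 by limma). That of ADG1 was 0.94 (adjusted p = 0.0416 by limma).

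At 24 h SS2 was at 16.9, 24.2 and 36.9 normalized counts in T24h A, B and C, against 39.9, 48.3 and 26.9 in C24h. Here its log2 fold change of -0.57 (SE 0.34) did not pass the test, with 0.371 as the adjusted p by limma, and -0.39 (adjusted p = 0.472) without C24h B. The difference between its responses at 24 h and 12 h was -2.12 (SE 0.49, adjusted p = 0.175 in an interaction test), and 0 of 63 list genes passed that test by limma, with 5 at an unadjusted p of at most 0.05. Without C24h B that difference of SS2 was -1.93 (SE 0.50, adjusted p = 0.120), and 0 of the 63 passed by limma, with 7 at an unadjusted p of at most 0.05. Between T24h and C0h 6 starch genes fell and 0 rose, beside 7.52% and 8.12% of all genes, SS2 among them by 1.64 (SE 0.34, adjusted p = 0.0134). The starch list had 2 calls without C0h B, 0 without C0h C and 1 without T24h A, and SS2 lost its call without C0h C or T24h A. Between T24h and C24h 0 of the 25 passed by limma, with 4 at an unadjusted p of at most 0.05 and 6 called without C24h B.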

How the data were processed

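The authors made stranded mRNA libraries, filtered and checked the reads, aligned them with STAR to the Papaya1.0 assembly, kept those with a unique alignment and normalized gene counts with DESeq2. The counting tool is not given in the sources used here. The deposited values are a normalized signal: the count of a gene over the size factor of its library. Every value was a whole multiple of the worth of 1 read to within 0.001 (100.0% of values). Reads were recovered for 13 libraries, and T12h B and T24h B, whose step is close to 1, were kept out of tests on reads. Chi-square values between replicates were 15.0 to 146 per degree of freedom over the pairs of 1 group with recovered reads, and no pair of these agreed within sampling noise. Pairs with T12h B or T24h B were not tested.

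Groups were compared with limma 3.58.1 (R 4.3.3), all in 1 fit with a variance trend, on log2 of the value plus 1. The fit took the 15270 genes whose mean was 5 or more, with Benjamini-Hochberg adjustment over them. Fold changes are on that scale, which understates those of low genes. A call is an adjusted p of at most 0.05, and "rose" and "fell" mean a call. Members and lists were chosen with earlier results of these data known. The genes named are the members, the other sucrose genes that entered the fit, up to 3 called genes per direction of each list by size in T12h over C12h, and the 3 genes most like each member.

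Lists were matched by symbol. The symbols come from an annotation table of a different assembly, from which no coordinates were taken (17406 of 19817 identifiers found, 4267 genes with a symbol). It gives no product names, so the planned search by product name was not made, and ambiguous symbols were left out, so lists are partial. Harvest letters pair libraries by label. Deviations from the group means were no more alike within a harvest (median r = -0.035, 30 pairs) than between harvests (-0.019, 60 pairs), and a harvest block was kept as an alternative.

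The other alternatives were pseudocounts of 0.5 and 5, a minimum mean of 50 or none, TMM scaling, quantile normalization, only the groups compared, library quality weights, each library left out, and edgeR 4.0.16 and DESeq2 1.42.0 on recovered reads. CPM scaling, limma on the 13 libraries, and the alternatives for the lists, for the genes named from them and for the interaction test were chosen after seeing the data. The test was also run on simulated data, and the outcome of that run is not reported here.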

Additional observations from a re-analysis of the deposited data

How the results depend on the processing

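Over 27 settings for SUS2, which has no value at a mean of at least 50, and 28 for the others, all 4 members kept their sign in T12h over C12h, T12h over C0h, T24h over C0h and T24h over T12h. Many of these settings cannot move a fold change. They are the filters on low values, only the groups compared, the harvest block, and leaving out a library of a group not compared. Keeping the sign is informative only in the other settings. A/N-INVC in T24h over C24h was -0.02 with CPM scaling, and small differences between control groups changed sign in some. CPM scaling moved the median of all genes by -0.327 in T12h over C12h, -0.324 in T24h over C24h, -0.25 in T12h over C0h, -0.384 in T24h over C0h and -0.132 in T24h over T12h, and the members with it: A/N-INVC to 1.0 and SPS2F to -0.96 in T12h over C12h, and A/N-INVC to 1.18 in T12h over C0h. Quantile normalization gave A/N-INVC 0.93 and SUS4 1.1 in T12h over C12h and A/N-INVC 1.07 in T12h over C0h, and SUS2 in T24h over C0h was 2.56 with a pseudocount of 5.

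With the replicate block for harvest, 3527 genes of all were called in T12h over C12h and 3434 in T12h over C0h. It gave 2185 in T24h over C0h, 669 in T24h over T12h and 0 in the others. Each harvest is in all groups, so this block cannot move a fold change. The unchanged member values therefore say nothing about the part of harvest. Of the named calls in T12h over C12h only that of ADG1 was lost with the block (adjusted p = 0.06095 by limma).

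Of the other sucrose genes, 1 was called with library quality weights in T12h over C12h and 1 in T24h over C24h (ATBFRUCT1 both times). In T12h over C0h 1 was called with CPM scaling (SUS3), 2 with quantile normalization (SPS1F, ATSPS4F), 2 with only the groups compared (SPS1F, SUS3) and 3 with quality weights (these and ATSPS4F). SPP1 was called in T24h over C0h with CPM scaling and with quantile normalization, 1 gene each. Leaving out 1 library gave 0 to 1 in T24h over C24h (ATBFRUCT1, without C24h B) and 0 to 1 in T12h over C0h (SUS3, without C24h B or C24h C).

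The count of all genes called depended more on the setting. In T12h over C12h it was 5678 with only the groups compared, 6762 with quality weights, 1878 with limma on the 13 libraries and 1578 with edgeR. In T24h over C24h it was 4950 with quality weights and 116 with DESeq2. T12h over C0h gave 7007 with quality weights, 2031 with limma on the 13 libraries and 1910 with edgeR, and T24h over C0h gave 4354, 1449 and 1078. T24h over T12h gave 264 with only the groups compared, 1535 with quality weights, 1 with limma on the 13 libraries, 0 with edgeR and 183 with DESeq2. Quality weights called 77 in C12h over C0h and 1051 in C24h over C0h, and DESeq2 34 and 11. Leaving out 1 library gave 841 to 5180 in T12h over C12h, 0 to 3601 in T24h over C24h, 813 to 5071 in T12h over C0h, 0 to 4098 in T24h over C0h, 36 to 1607 in T24h over T12h and 0 to 1 in C12h over C0h. The runs on the 13 libraries have fewer treated libraries, and the other causes were not tested. Depth limits SUS2 most, with 1 to 14 reads in the control libraries.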
